A study of Mus musculus with 12 samples.

Results

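The protein genes of the large (60S) subunit of the cytosolic ribosome were examined in mouse hypothalamus. The set held every Ensembl gene of the count table whose symbol is Rplp0, Rplp1, Rplp2, or Rpl followed by a number and, where present, the suffix a, l or l1. Genes named as pseudogenes were left out. The rule gave 53 genes of 78334 in the table, and 50 of them had enough counts to be tested among 25562 genes. The other 3 were Rpl10l, with 3 counts in 1 library, Rpl39l, with 7 counts in 1 library and 2 in another, and Rpl32l, with 0 counts in every library. Rpl6l and Rpl32l are processed pseudogenes in the GENCODE annotation used for names, although the rule admits them. Mitochondrial ribosomal proteins and the small (40S) subunit were not part of the set.

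Bulk RNA was sequenced from the hypothalamus of male C57BL/6 mice in 12 libraries. The diabetes group (n = 4) had streptozotocin, a toxin of pancreatic beta cells, at 70 mg/kg into the peritoneum on postnatal day 2. It then ate a diet with 60% of its energy as fat for 8 weeks from 3 weeks of age, and was gavaged with vehicle. The curcumin group (n = 3) and the garlic group (n = 2) were diabetic in the same way. For 28 days they were gavaged daily with curcumin, a turmeric polyphenol, at 50 mg/kg, or with aged garlic extract at 200 mg/kg. The control group (n = 3) ate a standard diet and received vehicle, so streptozotocin and diet cannot be told apart in any comparison with it. The labels do not say that each library came from a separate animal, and p-values therefore measure the spread between these libraries.

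A ribosome reads messenger RNA with its small subunit and forms peptide bonds in its large subunit. The proteins of the large subunit surround ribosomal RNA: the P stalk (Rplp0, Rplp1, Rplp2 and, at its base, Rpl12) recruits and activates elongation factors, Rpl5 and Rpl11 carry 5S RNA and can bind the p53 regulator Mdm2, and Rpl4, Rpl17, Rpl39 and others line or ring the tunnel through which the new peptide leaves. Most of their messages begin with a C followed by a run of pyrimidines (the 5′ TOP motif), through which mTOR signalling controls their translation. In the hypothalamus mTOR is known as a sensor of nutrients, insulin and leptin.

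The start of transcription is shown for a few members because runs of pyrimidines there are known from many genes of the family, and the windows printed include some without a long run. RefSeq promoter windows (GRCm38.p6) matched 40 of the 53 genes. Each line gives the 10 bases before the annotated start and the 20 bases from it, 5′ to 3′ on the transcribed strand, with the longest run of C and T in capitals.
Rpl14, chr9:120571507-120571536, plus strand: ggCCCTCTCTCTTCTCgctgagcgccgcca
Rpl15, chr14:18270967-18270996, minus strand: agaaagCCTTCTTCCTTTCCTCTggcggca
Rpl13a, chr7:45128726-45128755, minus strand: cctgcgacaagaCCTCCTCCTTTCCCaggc
Rplp2, chr7:141447641-141447670, plus strand: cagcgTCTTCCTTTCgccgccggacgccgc
Rpl28, chr7:4792955-4792984, plus strand: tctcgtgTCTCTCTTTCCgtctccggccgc
Rplp0, chr5:115559457-115559486, plus strand: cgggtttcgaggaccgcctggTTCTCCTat
Rpl41, chr10:128549149-128549178, minus strand: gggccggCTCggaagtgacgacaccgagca
Rpl7l1, chr17:46782637-46782666, minus strand: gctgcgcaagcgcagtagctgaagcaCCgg
The runs are 14 bases long in Rpl14 and Rpl13a, 17 in Rpl15, 11 in Rpl28 and 10 in Rplp2. Those of Rplp0, Rpl41 and Rpl7l1, a paralog of Rpl7, are 7, 3 and 2 bases long.

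Runs of at least 8 pyrimidines on the transcribed strand, within 20 bases of the start, were found in 18 of the 40 windows (45.0%) and in 15.9% of all 27025 promoters of the table. The letters CTTTC, which such a run can contain, stood there in 14 members (35.0%) against 5.38% of promoters, and 12 members had both. CCGGAAG, searched on both strands of the whole 300-base window, was found in 14 members (35.0%) and 9.12% of promoters. AAGATGG was found in 4 members and 6.48% of promoters, and TATAAA in 5 members (12.5%) and 14.2% of promoters. These are matches of letters and were not tested as binding sites.

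Library totals ran from 12950017 to 30271706 counts. The members together took from 0.205% to 0.654% of a library's counts, which were read against library sizes scaled by TMM as counts per 1000000 (CPM). The labelled tissue was checked with 22 hypothalamic markers. Their summed level was 287 CPM in curcumin library 2 and 695 CPM in curcumin library 1, against 1128 to 4851 CPM in the other 10 libraries. Diabetes library 4 had 1969 CPM of 12 pituitary markers, where the other libraries had 8.64 to 360 CPM. Counts of calls and medians over members are therefore also given without curcumin library 2 and diabetes library 4, as are genes whose value moved by over 1.5 times. Curcumin library 1 stood apart in another way, as its log2 levels, relative to the mean of all libraries, rose by 0.22 per log2 unit of gene length, where the other libraries lay between -0.08 and 0.06.

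Levels differed by orders of magnitude between members. Per kilobase of merged exons, the highest level was that of Rplp1 (722 CPM per kilobase, mean of 12 libraries), followed by Rpl8 (447), Rpl41 (339), Rpl4 (287) and Rpl32 (217). With the principal transcript as length, Rpl41 (680) stood above Rpl8 (595) and Rpl4 had 374. Rpl4, Rpl8, Rpl41 and Rplp1 together held 51.5% of the counts of all members. At least 10 CPM on average were reached by 36 members, 13 lay between 1 and 10 CPM, and 4 lay under 1 CPM, among them Rpl3l, the muscle paralog of Rpl3.

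As a share of all counts, the members stood higher in the diabetes libraries than in any other. The share was 0.272, 0.298 and 0.371% in control libraries 1 to 3. It was 0.449, 0.406, 0.543 and 0.654% in diabetes libraries 1 to 4. The curcumin libraries had 0.205, 0.333 and 0.289%, and the garlic libraries had 0.234 and 0.386%. The diabetes group therefore lay above all 8 other libraries without overlap, and the 3 other groups overlapped each other. The group means were 0.314 ± 0.052% (SD) in control, 0.513 ± 0.110% in diabetes, 0.276 ± 0.065% in curcumin and 0.310 ± 0.108% in garlic. Exact binomial 95% intervals were narrow beside these spreads (for example 0.650 to 0.657% in diabetes library 4) and cover counting error only. In bulk tissue, fewer cells of a type and less RNA per cell cannot be told apart.

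**Figure D1:**
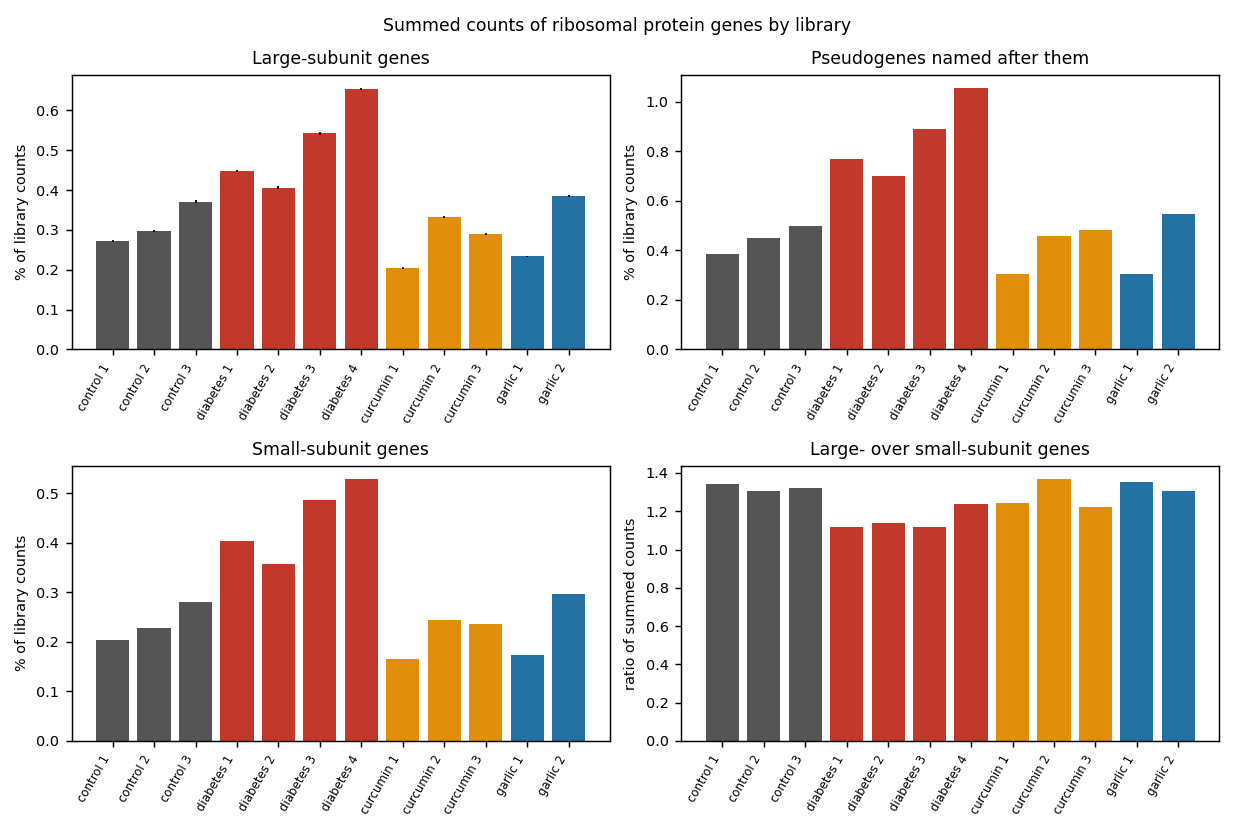
Percent of each library's counts in large-subunit genes (error bars, exact binomial 95% interval), in pseudogenes named after them and in small-subunit genes, and the ratio of large- to small-subunit counts, 1 bar per library. The 4 diabetes libraries had 0.406 to 0.654% in large-subunit genes and every other library 0.386% or less, while the ratio was 1.12 to 1.24 in diabetes and 1.22 to 1.37 elsewhere.

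In diabetes against control, many abundant members averaged well above their control level, but none passed an adjusted p of 0.05 in edgeR, where DESeq2 and limma-voom called some. Rplp1, the P-stalk protein that contacts elongation factors, was the clearest in size. It measured 213, 247 and 277 CPM in control libraries and 545, 429, 719 and 895 CPM in diabetes libraries, which do not overlap. Rpl8, a protein beside the peptidyl transferase centre, measured 446, 431 and 463 CPM in control and 854, 691, 1039 and 1072 CPM in diabetes, again without overlap. The log2 changes were 1.40 ± 0.34 (SE) for Rplp1 and 1.03 ± 0.26 for Rpl8, with adjusted p of 0.142 and 0.150 by edgeR's quasi-likelihood test and Benjamini-Hochberg adjustment.

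Rpl7, a constituent of the subunit, was higher by less but with little spread. Rpl7 measured 84.8, 90.8 and 91.3 CPM in control and 181, 141, 168 and 148 CPM in diabetes (0.84 ± 0.20, adjusted p = 0.125, edgeR). Its groups do not overlap. Rpl14, whose pyrimidine run is printed above, measured 106, 141 and 138 CPM in control and 267, 275, 241 and 295 CPM in diabetes (1.07 ± 0.26, adjusted p = 0.142, edgeR). The lowest diabetes value of Rpl14 was well above the highest control value.

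Across the 50 members tested, 0 passed an adjusted p of 0.05 in edgeR, where 0.0156% of all genes tested did. At an unadjusted p under 0.05, 17 members were higher and 0 lower, where 4.79% of all genes were higher. DESeq2 called 7 members higher (1.82% of all genes) and limma-voom with library weights called 14 (2.83%). In 12 members every diabetes library lay above every control library (5.78% of all genes). The log2 change was above 0 in 39 members and below 0 in 11, with a median of 0.47 against -0.07 over all genes tested. Without diabetes library 4 and curcumin library 2 the members' median was 0.37 and edgeR called 0. It was 0.27 without control library 2 and 0.74 without control library 3, whose members stood highest of the controls.

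By role, the P stalk averaged a larger change than the 5S RNA carriers. Rplp0, the core of the stalk, measured 39.9, 48.4 and 50.9 CPM in control and 69.7, 62.2, 99.6 and 90.7 CPM in diabetes, without overlap (0.80 ± 0.24, adjusted p = 0.231, edgeR). Rplp2, the partner of Rplp1, measured 45.0, 36.8 and 39.9 CPM in control and 47.5, 31.6, 73.3 and 99.8 CPM in diabetes, with overlap in diabetes library 2 (0.64 ± 0.48, adjusted p = 0.708, edgeR). Without diabetes library 4 and curcumin library 2 the change of Rplp2 was 0.31. Rpl12, at the base of the stalk, measured 7.01, 7.79 and 11.2 CPM in control and 6.89, 9.58, 16.2 and 18.8 CPM in diabetes, with overlap (0.57 ± 0.47, adjusted p = 0.756, edgeR). The median log2 change of the 4 stalk genes was 0.72. Rpl5 measured 9.46, 7.79 and 20.4 CPM in control and 14.6, 11.6, 13.4 and 10.5 CPM in diabetes, and all diabetes values lay inside the control range. Rpl11 measured 8.65, 11.2 and 15.7 CPM in control and 15.8, 13.1, 18.9 and 11.3 CPM in diabetes, with overlap. Their log2 changes were -0.01 ± 0.38 and 0.31 ± 0.39 (adjusted p 1.0 and 0.902, edgeR). The sign for Rpl5 turned under several scalings and left-out libraries, so it has no direction here. That the stalk and the 5S carriers differ was not tested. Pseudogenes named after Rpl5 held 78.9% of the summed counts, against 0.817% for Rplp0 and 0.0331% for Rplp1. Of the 150-base stretches (the read length) of Rpl11, 49.6% also occur in transcripts of other genes, and 45.8% of those of Rpl5. The shares were 7.36% in Rplp0, 12.0% in Rplp1, 8.43% in Rplp2 and 44.4% in Rpl12. The part of this in the difference between the roles was not tested.

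At the low end among members of at least 10 CPM were Rpl23 and Rpl3. Rpl23, which sits where initiation factor eIF6 binds, had 21.99, 17.3 and 47.6 CPM in control and 31.9, 17.1, 19.4 and 39.9 CPM in diabetes (-0.09 ± 0.40, adjusted p = 0.991, edgeR). Rpl3, near the peptidyl transferase centre, had 46.1, 40.1 and 53.9 CPM in control and 28.0, 35.4, 45.4 and 76.3 CPM in diabetes (-0.01 ± 0.29, adjusted p = 0.998, edgeR). Both groups overlap in both genes, and both signs turned under other settings. The 6 genes of the peptidyl transferase and subunit-joining region had a median of -0.05, although Rpl8 belongs to it. The 10 tunnel genes had 0.48. These medians are of the genes alone. In Rpl10, Rpl3 and Rpl10a, of the first region, pseudogenes of their name held 97.8, 95.2 and 89.4% of the summed counts. So summed, their changes were 0.83, 0.76 and 0.95. Rpl8, Rpl23 and Rpl24 have no such pseudogenes, and medians by role were not taken on sums. Yet 72.5% of the 150-base stretches of Rpl24 and 13.6% of those of Rpl23 also occur in other genes, against 0.0% in Rpl8.

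The size of the change went with the level. The 16 members of at least 50 CPM all had a log2 change above 0 (median 0.79, 10 without overlap). The 20 members of 10 to 50 CPM had a median of 0.33, and the 14 under 10 CPM had -0.06. In many of the last class pseudogenes of their name held most of the summed counts, as in Rpl17 (99.1%), Rpl31 (98.6%) and Rpl38 (98.5%). So summed, these changed by 1.07, 0.95 and 1.25. Rpl12 had 1.59% there and changed by 0.54, and Rpl22l1, Rpl24 and Rpl3l have no such pseudogenes. Still, 72.5% of the 150-base stretches of Rpl24 also occur in transcripts of other genes. The share was 44.4% in Rpl12, 20.8% in Rpl22l1 and 0.0% in Rpl3l. The part of this in the relation with level was not tested. Over the 50 members, Pearson's r of log2 change with log2 mean level was 0.66, a description across genes that share the same libraries and whose mean level includes the compared groups. Members with a pyrimidine run had a median of 0.45 (17 genes) and those without one 0.33 (20 genes), among the 37 tested members with a window.

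**Figure D2:**
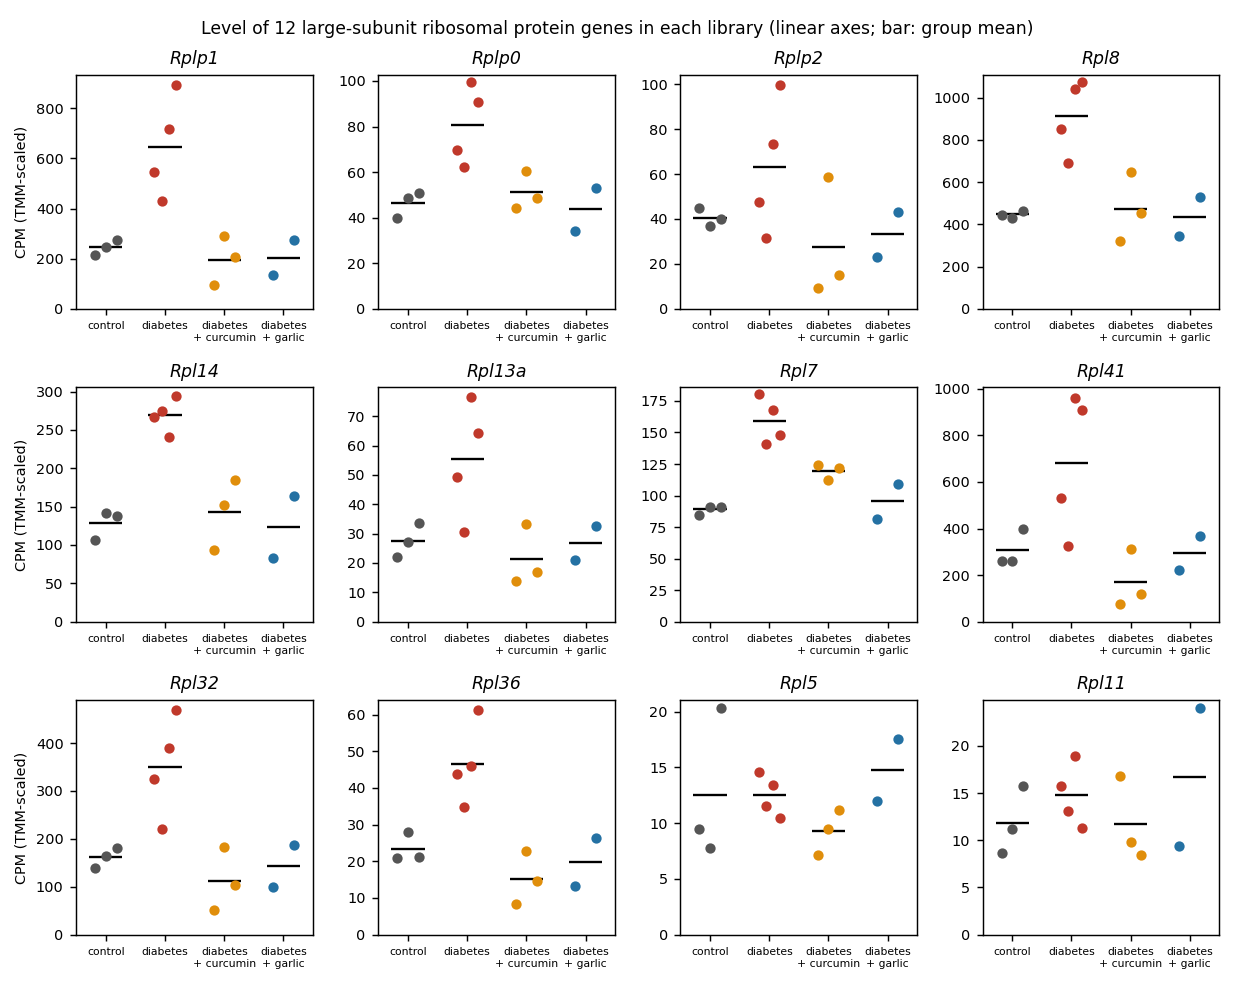
CPM of 12 members in each library (1 dot per library, bar at the group mean, linear axes from 0). Rplp1, Rplp0, Rpl8, Rpl14, Rpl7, Rpl32 and Rpl36 have every diabetes library above every control library, and Rpl5 and Rpl11 do not.

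In curcumin-treated diabetic mice, most members averaged lower than in vehicle-treated diabetic mice. Rpl41, Rplp1, Rpl32 and Rpl36 were among those with the smallest p. No member passed the adjusted threshold in edgeR over all libraries, where DESeq2 and limma-voom called some. Rplp1 measured 96.0, 289 and 205 CPM in curcumin libraries 1 to 3, all below the lowest diabetes value (log2 change -1.72 ± 0.35, adjusted p = 0.0541, edgeR). Rpl41, the smallest ribosomal protein and a bridge between the subunits, measured 260, 261 and 400 CPM in control, 533, 324, 962 and 909 CPM in diabetes and 78.0, 314 and 118 CPM in curcumin. The curcumin and diabetes groups of Rpl41 do not overlap, but curcumin library 2 and diabetes library 2 were close (-2.003 ± 0.435, adjusted p = 0.0638, edgeR).

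Rpl32 measured 325, 221, 390 and 469 CPM in diabetes and 50.8, 183 and 103 CPM in curcumin (-1.65 ± 0.36, adjusted p = 0.0638, edgeR). Rpl36 measured 43.7, 34.8, 46.0 and 61.3 CPM in diabetes and 8.43, 22.7 and 14.7 CPM in curcumin (-1.60 ± 0.34, adjusted p = 0.0625, edgeR). Neither overlaps, and in both curcumin library 1 was lowest and library 2 highest. Rpl13a, also known for a role in silencing inflammatory messages, measured 49.4, 30.7, 76.7 and 64.4 CPM in diabetes and 13.7, 33.4 and 17.1 CPM in curcumin, with overlap (-1.37 ± 0.35, adjusted p = 0.0957, edgeR).

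The edgeR count of members called was 0 of 50, against 0.09% of all genes tested. At an unadjusted p under 0.05, 22 members were lower (6.71% of all genes) and 0 higher. DESeq2 called 11 members lower (2.58%) and limma-voom called 3 (0.45%). In 18 members every curcumin library lay below every diabetes library (4.19% of all genes). The log2 change was below 0 in 46 members and above 0 in 4, with a median of -0.79 against 0.07 over all genes.

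These counts depend on curcumin library 2, which is the one poorest in hypothalamic markers. Without it, edgeR called 13 members and 4.82% of all genes lower, among the members Rplp1 (-2.06, adjusted p = 0.00293), Rpl41 (-2.75, adjusted p = 0.000955), Rpl32, Rpl36, Rpl13a and Rplp2. Without both that library and diabetes library 4 it called 9 members and 3.3% of all genes lower (Rplp1 -1.90, adjusted p = 0.0124), with a median over members of -0.84. Leaving out diabetes library 2 gave 2 calls (0.217% of all genes), and leaving out any other single library gave 0. Curcumin library 1, which stayed in the fits without curcumin library 2, was also poor in hypothalamic markers (695 CPM). Without curcumin library 1 alone the median over members was -0.63. Curcumin library 1, whose levels sloped with gene length, was the lowest of its group in Rplp1, Rplp2, Rpl8, Rpl14, Rpl32, Rpl36 and Rpl41. With each library's trend along gene length corrected by a smoothed curve (lowess), 4 members were called (0.391% of all genes) and the median was -0.53.

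In the P stalk, the median of the 4 genes was -1.10. Rplp2 measured 9.28, 58.5 and 15.1 CPM in curcumin, so library 2 lay inside the diabetes range and the other libraries far below it (-1.19 ± 0.49, adjusted p = 0.229, edgeR). Without curcumin library 2 and diabetes library 4 it fell by 2.05 on the log2 scale (adjusted p = 0.011, edgeR). Rpl12 measured 6.39, 8.34 and 4.26 CPM in curcumin, with overlap (-1.02 ± 0.47, adjusted p = 0.279, edgeR). Rplp0 measured 44.5, 60.4 and 48.8 CPM, just below the lowest diabetes value of 62.2 CPM (-0.65 ± 0.24, adjusted p = 0.192, edgeR). Summed, the stalk genes had 156, 416 and 273 CPM in curcumin against 533 to 1104 CPM in diabetes and 305 to 379 CPM in control. Rpl8 measured 319, 647 and 452 CPM and Rpl14 93.1, 152 and 185 CPM in curcumin, both without overlap with diabetes.

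The 5S carriers again had small differences. Rpl5 measured 7.15, 9.48 and 11.2 CPM in curcumin (-0.43 ± 0.38, adjusted p = 0.638, edgeR) and Rpl11 16.8, 9.83 and 8.42 CPM (-0.34 ± 0.39, adjusted p = 0.741, edgeR), and both overlap with diabetes. At the high end among members of at least 10 CPM stood Rpl28, with 12.2, 19.0, 11.1 and 10.4 CPM in diabetes and 12.8, 16.3 and 12.4 CPM in curcumin (0.07 ± 0.33, adjusted p = 0.955, edgeR). Rpl3 followed, with 43.5, 47.5 and 30.0 CPM in curcumin (-0.20 ± 0.30, adjusted p = 0.818, edgeR). The signs of Rpl28 and Rpl3 turned when single libraries were left out. Rpl28 is among the members with a pyrimidine run, which had a median of -0.88 against -0.63 in those without.

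**Figure D3:**
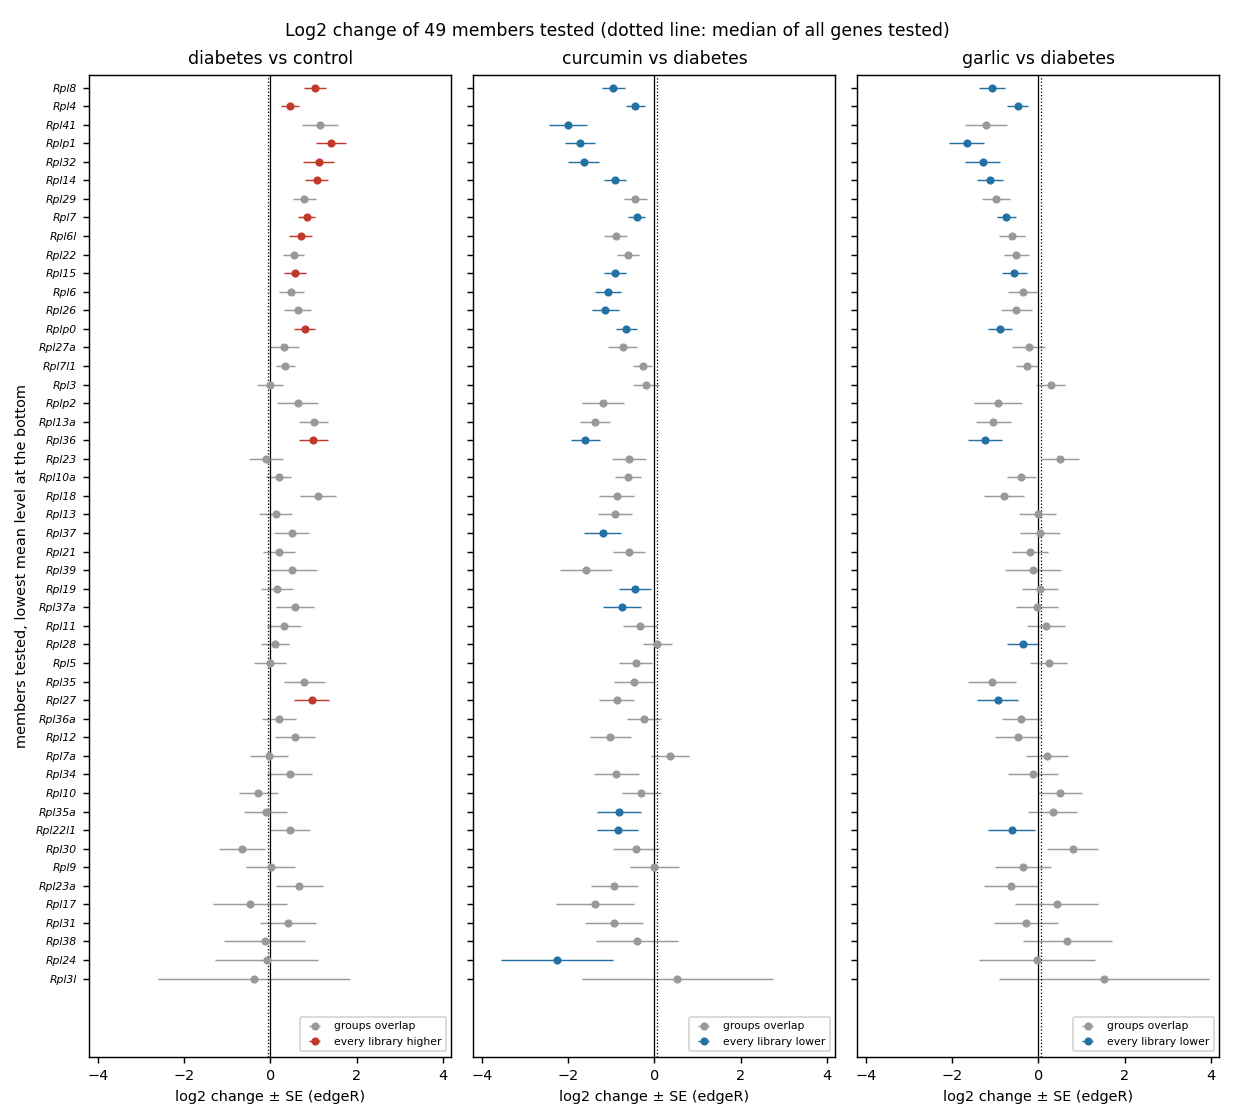
Log2 change and SE (edgeR) of 49 of the 50 members tested in 3 comparisons, ordered by mean level; red and blue mark members whose 2 groups do not overlap, and the dotted line is the median of all genes. The diabetes group is shared by the 3 panels; 11 of those drawn are marked in diabetes against control, 18 in curcumin against diabetes and 12 in garlic against diabetes.

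In the garlic group, of only 2 libraries, the members of at least 50 CPM all averaged lower than in diabetes, while those under 10 CPM were divided evenly, 7 lower and 7 higher. Rplp1 measured 134 and 275 CPM, both below the lowest diabetes value of 429 CPM (-1.66 ± 0.41, adjusted p = 0.187, edgeR). Rpl14 measured 83.3 and 164 CPM (-1.12 ± 0.31, adjusted p = 0.22, edgeR), Rpl8 343 and 529 CPM (-1.07 ± 0.30, adjusted p = 0.242, edgeR), and neither overlaps with diabetes. Rpl7 measured 81.7 and 109 CPM (-0.74 ± 0.23, adjusted p = 0.28, edgeR). In each of these genes garlic library 1 was the lower of the pair.

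Rpl32 measured 99.1 and 187 CPM in garlic (-1.29 ± 0.41, adjusted p = 0.306, edgeR), below the diabetes range. Rplp0, at 34.1 and 53.2 CPM, was also below it (-0.88 ± 0.28, adjusted p = 0.301, edgeR), while Rplp2, at 22.9 and 43.3 CPM, overlapped (-0.93 ± 0.56, adjusted p = 0.627, edgeR, and -0.58 without the doubted diabetes library 4 and curcumin library 2). Rpl12, at 5.23 and 13.3 CPM, overlapped as well (-0.47 ± 0.53, adjusted p = 0.948, edgeR). Rpl5, at 12.0 and 17.5 CPM, and Rpl11, at 9.44 and 24.1 CPM, overlapped with diabetes (0.24 ± 0.42 and 0.18 ± 0.43, both adjusted p 1.0, edgeR), and the change of Rpl11 was 0.11 without the doubted libraries.

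Of the 50 members, edgeR called 0, as it did of all genes (0.0%). At an unadjusted p under 0.05, 11 members were lower (4.03% of all genes) and 0 higher, DESeq2 called 9 lower (1.48%) and limma-voom 7 (1.4%). In 13 members both garlic libraries lay below every diabetes library, where 7.52% of all genes did. The median was -0.38 against 0.07 over all genes, with 37 members below 0 and 13 above, and -0.28 without the 2 doubted libraries. It was -0.81 in the 16 members of at least 50 CPM, all of which were below 0, -0.23 in the middle class and 0.08 under 10 CPM. In the middle class 6 members averaged higher than in diabetes and 14 lower. Highest were Rpl23 (0.51 ± 0.44, adjusted p = 0.86, edgeR) and Rpl3 (0.28 ± 0.33, adjusted p = 0.956, edgeR). The median was -0.11 without garlic library 1 and -0.82 without garlic library 2, so each library moves it by more than 1.5 times. Without garlic library 2 edgeR called 1 member, Rplp1 (-2.27, adjusted p = 0.0377), and 0.124% of all genes lower, with the remaining garlic library assumed to vary like the other groups.

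Against control, the treated groups had few differences. In curcumin against control edgeR called 0 members (0.0% of all genes), DESeq2 0 (0.0196%) and limma-voom 0 (0.0%). At an unadjusted p under 0.05, 1 member was higher and 0 lower (2.34% of all genes in either direction). The median over members was -0.36, with 35 of 50 below 0; it was -0.08 without control library 3, -0.22 without curcumin library 1, -0.24 without curcumin library 3 and -0.62 without curcumin library 2. In garlic against control all counts were 0, by edgeR (0.0%), DESeq2 (0.0%), limma-voom (0.0%) and at an unadjusted edgeR p under 0.05 (0.11% of all genes). Its median was 0.08. It turned to -0.41 without garlic library 2, -0.04 without control library 1 and -0.03 without control library 2, and was 0.30 without control library 3 and 0.34 without garlic library 1.

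Curcumin and garlic were compared directly, both gavaged for 28 days at their own doses. EdgeR called 0 members (0.0%), DESeq2 0 (0.0274%) and limma-voom 0 (0.0%), and 3 members were lower in curcumin at an unadjusted p under 0.05 (1.6% of all genes in either direction), Rpl37, Rpl23 and Rpl39. Rpl37 averaged 9.92 ± 1.48 CPM (SD, n = 3) in curcumin and 23.5 ± 12.4 CPM (n = 2) in garlic (-1.25 ± 0.48, adjusted p = 1.0, edgeR). The median over members was -0.36, and it was 0.10 without garlic library 2, -0.63 without garlic library 1 and -0.70 without curcumin library 2. A p that misses the threshold with so few libraries does not show that the treatments act alike.

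Many counts stood in pseudogenes named after these genes. Processed pseudogenes are copies of a message put back into the genome, and those of ribosomal proteins can be close in sequence to their source. Over the members tested, a median of 19.8% of the 150-base stretches of a member also occur in other genes. Of the 53 members, 37 have pseudogenes in the table that carry their name. In 23 of the 37 more than 50% of the summed counts stood in the pseudogenes, and in 13 more than 90%. How reads that match several places were counted is not given in the sources used here, so the level of such a member is uncertain. Rpl3 averaged 46.6 CPM and its 2 pseudogenes 931 CPM (95.2%). Rpl19 averaged 16.7 CPM against 469 CPM, of which Rpl19-ps11 alone held 456 CPM, and Rpl38 averaged 3.33 CPM against 230 CPM (98.5%). Rplp1, by contrast, had 0.0331% of its counts in pseudogenes and Rplp0 0.817%.

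**Figure D4:**
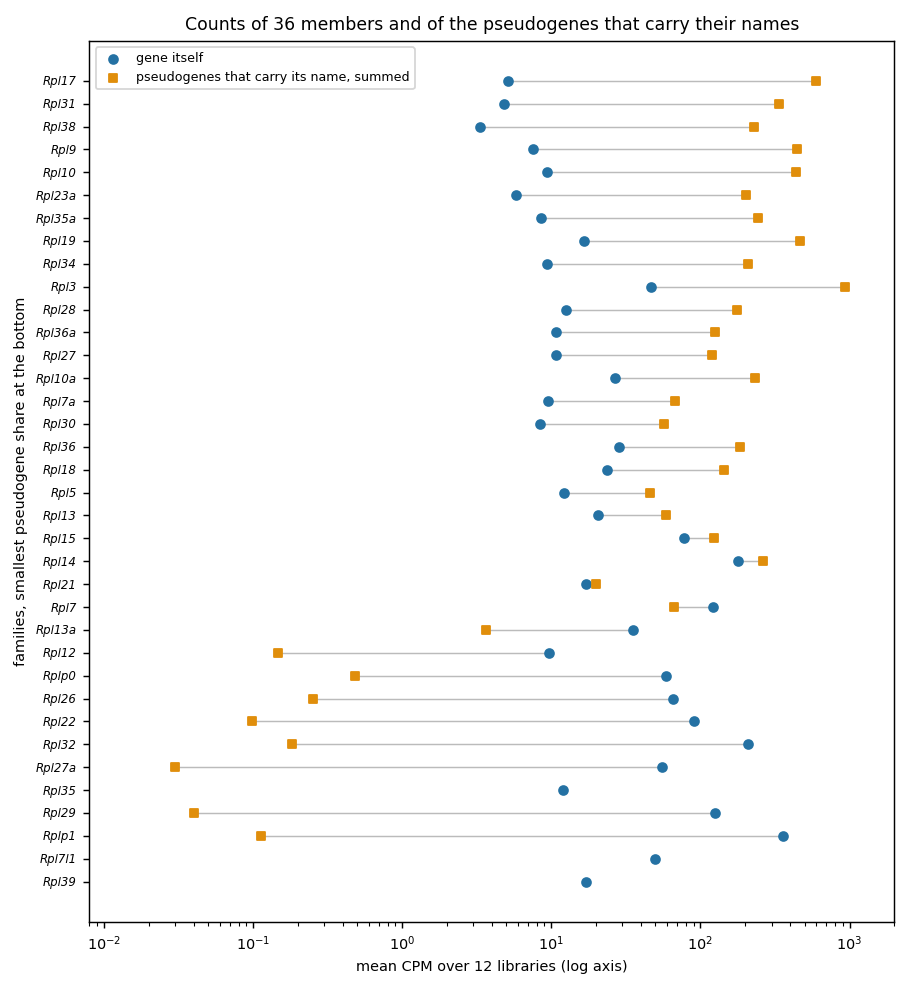
Mean CPM over 12 libraries (log axis) of 36 members and of the pseudogenes that carry their name, summed; pseudogene sums under 0.01 CPM (Rpl35, Rpl7l1 and Rpl39) are not drawn. In 23 families the pseudogenes lie above the gene, by the widest margin in Rpl17, Rpl31, Rpl38 and Rpl9.

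In an analysis chosen after seeing the data, each member was summed with the pseudogenes that carry its name, and all 25480 remaining genes were fitted again. The diabetes libraries then stood above control in more families. Rpl34 with its 2 pseudogenes measured 120, 152 and 135 CPM in control and 422, 275, 378 and 403 CPM in diabetes, without overlap (1.44 ± 0.24, adjusted p = 0.0728, edgeR). For Rpl34 alone the values were 8.10, 5.75 and 11.9 CPM in control and 15.5, 7.604, 11.5 and 12.2 CPM in diabetes, which overlap. The families called were 0 of 50 (0.0118% of all genes), and 30 were higher at an unadjusted p under 0.05 (4.76%). The median was 0.79, and 0.67 without the 2 doubted libraries.

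In curcumin against diabetes 2 families fell, those of Rpl19 and Rpl36, where 0.0903% of all genes were called. Rpl19 with its pseudogenes measured 292, 342 and 348 CPM in control, 763, 653, 955 and 933 CPM in diabetes and 233, 382 and 274 CPM in curcumin (-1.48 ± 0.27, adjusted p = 0.0474, edgeR). Rpl36 with its pseudogenes measured 125, 156 and 112 CPM in control, 281, 315, 457 and 520 CPM in diabetes and 71.8, 169 and 122 CPM in curcumin (-1.71 ± 0.32, adjusted p = 0.0475, edgeR). In both families all curcumin libraries lay below all diabetes libraries. At an unadjusted p under 0.05, 38 families were lower (6.67% of all genes) and the median was -0.99. Without curcumin library 2 and diabetes library 4 the number of families called was 20 (3.27% of all genes lower), Rpl19 (adjusted p = 0.00887) and Rpl36 (adjusted p = 0.00963) among them, all lower.

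In garlic against diabetes 0 families were called (0.0% of all genes), 27 were lower at an unadjusted p under 0.05 (4.0%), and the median was -0.91, more than 2 times that of the members alone. Rpl34 had the smallest adjusted p, with 79.0 and 147 CPM in garlic (-1.71 ± 0.29, adjusted p = 0.119, edgeR). Rpl28, which alone had garlic values of 10.2 and 10.4 CPM just under the lowest diabetes value, was in sum 145, 157 and 164 CPM in control, 260, 242, 278 and 343 CPM in diabetes, 63.3, 235 and 60.7 CPM in curcumin and 109 and 193 CPM in garlic. Diabetes did not overlap with any other group in that sum. For the 5S carrier Rpl5 the sum was 40 to 63.9 CPM in the 3 control libraries and 60.3, 54.4, 56.7 and 65.6 CPM in diabetes, with overlap (0.26 ± 0.24, adjusted p = 0.8, edgeR).

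**Figure D5:**
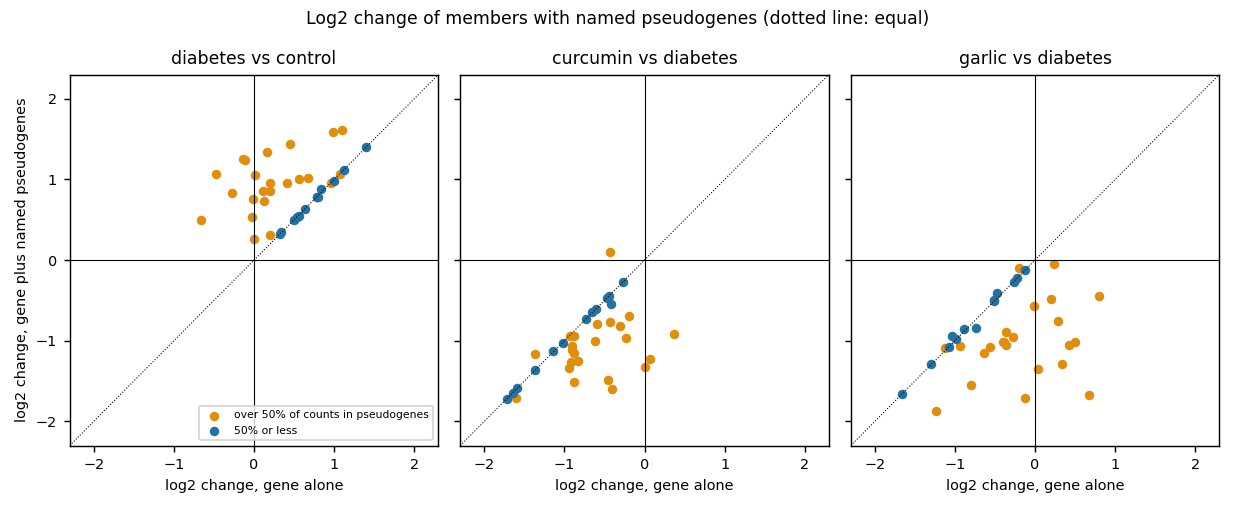
Log2 change (edgeR) of each member with named pseudogenes, alone (horizontal) and summed with them (vertical), in 3 comparisons; orange dots are the 23 members with over 50% of counts in pseudogenes. Blue dots lie near the line of equality and most orange dots lie above it in diabetes against control and below it in both treated groups.

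Taken singly, 3 of the 82 named pseudogenes tested passed in edgeR, 1 in diabetes against control and 2 in curcumin against diabetes, beside the 0.0156% and 0.09% of all genes called there. Rpl34-ps1 rose in diabetes, 357 ± 62.1 CPM (SD, n = 4) against 127 ± 17.4 CPM (n = 3) in control (1.49 ± 0.24, adjusted p = 0.046, edgeR). In curcumin Rpl19-ps11 fell to 276 ± 78.2 CPM (n = 3) from 787 ± 141 CPM in diabetes (-1.51 ± 0.27, adjusted p = 0.046, edgeR), and Rpl36-ps2 fell to 36.6 ± 14.9 CPM from 119 ± 33.8 CPM (-1.70 ± 0.31, adjusted p = 0.046, edgeR). All 189 pseudogenes of large-subunit genes together took 0.701 to 1.06% of counts in the diabetes libraries and 0.303 to 0.547% in the other 8.

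Paralogs held the smaller part of most pairs. The exception was Rpl6l, a processed pseudogene in the annotation, with 53.5 to 71.8% of the counts of Rpl6l and Rpl6 together. Rpl7l1, a Rpl7-like protein of ribosome assembly, measured 46.0, 45.2 and 41.9 CPM in control, 47.0, 45.6, 64.7 and 67.9 in diabetes, 40.4, 52.1 and 47.0 in curcumin and 43.6 and 50.1 in garlic. It overlapped between all groups, and its log2 change was 0.34 ± 0.22 in diabetes against control (adjusted p = 0.604, edgeR), or 0.22 without the 2 doubted libraries. Of the counts of Rpl7l1 and Rpl7 together, Rpl7l1 held 35.2, 33.2 and 31.5% in control and 20.6, 24.5, 27.8 and 31.5% in diabetes. The curcumin libraries held 24.6, 31.6 and 27.8%, and garlic 34.8 and 31.5%. Diabetes libraries 1 to 3 lay below the lowest control value, that of control library 3, and diabetes library 4 matched it when rounded. Their exact binomial 95% intervals overlap, with 30.1 to 32.9% in diabetes library 4 and 29.8 to 33.2% in control library 3.

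Rpl22l1, the counterpart of Rpl22, measured 6.21, 4.53 and 13.7 CPM in control, 13.1, 9.01, 11.6 and 11.0 in diabetes, 3.27, 7.597 and 7.68 in curcumin and 5.98 and 8.53 in garlic. It lay lower in both treated groups than in diabetes without overlap (-0.85 ± 0.48, adjusted p = 0.381, and -0.62 ± 0.54, adjusted p = 0.862, edgeR), and held 5.45 to 13.2% of the pair. Rpl3l had 9, 6 and 4 counts in control, 25, 0, 0 and 0 in diabetes, 0, 20 and 0 in curcumin and 18 and 10 in garlic. It was at most 3.06% of Rpl3 and Rpl3l together, and its fitted changes carry SEs of more than 2 log2 units. The testis paralogs Rpl10l and Rpl39l were at or near 0 throughout.

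Members varied together across libraries. Over the 12 libraries, the median Pearson's r between pairs of the 36 members of at least 10 CPM was 0.60, and 92.9% of 630 pairs were above 0. These points share libraries, depth and groups, and the values describe them only. Rpl26, at the tunnel exit, had the highest median r with the others (0.81) and Rpl28 the lowest (-0.08). The first component of these 36 genes held 69.5% of their variance and ran from curcumin library 1 (-0.59) to diabetes library 4 (0.48).

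Other translation genes were read from the same fit. Of 32 small-subunit genes, all tested, 1 rose in diabetes: Rps2, a protein of the messenger entry channel, with 187 ± 31.1 CPM (n = 4) against 64.8 ± 5.45 CPM (n = 3) in control (1.53 ± 0.23, adjusted p = 0.0325, edgeR). In curcumin against diabetes 1 fell, Rps4l, a Rps4x-like gene, with 32.3 ± 7.42 against 94.8 ± 18.2 CPM (-1.55 ± 0.25, adjusted p = 0.0452, edgeR). The medians of the small-subunit list were 0.67, -1.01 and -0.78 in diabetes against control, curcumin against diabetes and garlic against diabetes. The ratio of large- to small-subunit counts was 1.34, 1.31 and 1.32 in control, 1.12, 1.14, 1.12 and 1.24 in diabetes, 1.25, 1.37 and 1.22 in curcumin and 1.35 and 1.31 in garlic. It was lower in diabetes than in control and garlic without overlap, and overlapped with curcumin.

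Elongation factors and other messages with a TOP motif (24 tested) had 0 calls and medians of 0.35, -0.53 and -0.39 in the same order. In this list Eif3k, a subunit of initiation factor 3, had 226 ± 55.0 CPM in diabetes and 106 ± 9.04 CPM in control (1.10 ± 0.27, adjusted p = 0.142, edgeR), and 93.5 ± 41.5 CPM in curcumin (adjusted p = 0.0625). Genes of ribosome assembly (54 tested) had medians of -0.02, -0.08 and -0.05, with 0 called and, in diabetes against control, 4 higher and 3 lower at an unadjusted p under 0.05. Those of RNA polymerases I and III (30 tested) had -0.07, -0.14 and -0.05, and those of mTOR signalling (26 tested) -0.06, 0.13 and -0.01, also with 0 called. The 28 initiation factors had 0.17, -0.14 and -0.11.

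Of the fusion and associated ribosomal proteins (5 tested), Rack1, a scaffold on the small subunit, had 378 ± 62.7 CPM in diabetes and 205 ± 20.4 CPM in control (0.88 ± 0.22, adjusted p = 0.142, edgeR). The 16 genes tested around p53 and Mdm2 had 0 called, and in them Mdm4, a p53 inhibitor, averaged lower in diabetes (63.7 ± 18.1 CPM) than in control (126 ± 3.27 CPM, -0.98 ± 0.24, adjusted p = 0.142, edgeR). Ribosome quality control and dormancy genes (23 tested) had medians of -0.14, -0.02 and 0.16. The large subunit of the mitochondrial ribosome (48 tested) had 0.58, -0.57 and -0.66 with 0 called. There 22 genes were higher in diabetes at an unadjusted p under 0.05, beside 4.79% of all genes, and Mrpl54 had the smallest p (1.61 ± 0.36, adjusted p = 0.122, edgeR).

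Some markers of tissue and cell types moved with the same contrast. Pituitary markers summed to 187 to 1969 CPM in diabetes, 71.6 to 94.8 CPM in control, 8.64 to 94.9 CPM in curcumin and 26.1 to 110.5 CPM in garlic. In each library 3 to 8 of the 12 were at 0. Pomc, also a hypothalamic gene, was the one of smallest p and held much of these sums. It averaged 460 ± 425 CPM in diabetes and 59.8 ± 9.22 CPM in control. By score (median of centred log2 levels) the pituitary list overlapped, with -0.237 to 4.205 in diabetes and -1.477 to 0.484 in control. Blood markers summed to 363 to 1862 CPM in diabetes, 154 to 312 CPM in control, 148 to 547 CPM in curcumin and 189 to 231 CPM in garlic, with 0 to 2 of 8 at 0. Hypothalamic markers, Pomc included, summed to 2390 to 4851 CPM in diabetes and 1681 to 2386 CPM in control. In curcumin they had 287 to 1655 CPM and in garlic 1128 to 2481 CPM. By score, diabetes (0.445 to 1.028) and control (0.27 to 0.673) overlapped. In diabetes against control 15 were higher and 6 lower (median 0.19). In curcumin against diabetes 1 was higher and 20 lower (median -1.17). Of single markers, Foxd2 of the hypothalamic list fell in curcumin against diabetes (-7.78 ± 1.29, adjusted p = 0.0452, edgeR). Neuron markers summed to 3749 to 4025 CPM in diabetes and to 4211 to 6197 CPM elsewhere, with none at 0. Astrocyte markers summed to 2817 to 3781 CPM in diabetes and 1163 to 4273 CPM elsewhere, and oligodendrocyte markers to 5168 to 6707 and 4490 to 12070 CPM. Microglia markers summed to 301 to 481 CPM in diabetes and 268 to 353 CPM elsewhere, endothelial and mural markers to 178 to 507 and 205 to 723 CPM, and choroid plexus markers to 50.9 to 60.2 and 38.4 to 84.0 CPM. The 18 thalamus and habenula markers summed to 814 to 1094 CPM in diabetes and 1072 to 1590 CPM in control, which overlap. In curcumin they summed to 852 to 1450 CPM and in garlic to 940.8 to 948.5 CPM. Their scores lay between -0.60 and -0.24 in diabetes and between 0.26 and 1.09 in control. The scores were -0.156 to 0.165 in curcumin and 0.042 to 0.165 in garlic. At equal depth, 20133 to 22515 genes were detected in the diabetes libraries, 25766 to 33157 in control, 20917 to 29126 in the curcumin group and 33125 to 34719 in the garlic group. The part of these in the levels of the ribosomal genes was not tested. Without diabetes library 4, the highest in pituitary and blood markers, and curcumin library 2, Rplp1 averaged 1.18 log2 units higher in diabetes than in control (adjusted p = 0.169, edgeR).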

How the data were processed

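The members and gene lists were chosen with earlier results of these data known. Per the labels' protocols, Trizol RNA of integrity number above 7 was made into stranded poly-A libraries and read as pairs of 150 bases. The authors deposited raw read counts per gene as 1 table. The submitters' processing notes name GRCm39, featureCounts and FastQC. Aligner, annotation release, strand setting and treatment of multi-mapping reads: not given in the sources used here. Paralogs, pseudogenes and overlapping genes are therefore uncertain. Treatment began in diet week 7 by the protocol and after 11 weeks by the design text.

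Symbols were found for 51486 of 78334 IDs (65.7%), which carried 97.8% of counts. Names and lengths came from GENCODE M21 (GRCm38). All 12 libraries were fitted in 1 model in edgeR 4.0.16 (R 4.3.3): filterByExpr by group, TMM, glmQLFit and glmQLFTest, Benjamini-Hochberg adjustment over 25562 genes, threshold 0.05, common dispersion 0.653. The 6 contrasts that share groups were fitted together, and the 3 main ones share the diabetes libraries. CPM are counts per 1000000 of TMM-scaled library size, given as mean ± SD over libraries, and SE belongs to the log2 change. No 2 libraries agreed within sampling noise (chi-square at least 12.2 per degree of freedom). Alternatives used DESeq2 1.42.0 and limma 3.58.1, and the test was tried on simulated counts.

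The rule for naming gave full values to the 5 members of smallest p in each main comparison, and always to Rplp0, Rplp1, Rplp2, Rpl5, Rpl11 and the paralogs. It also took the 2 of lowest log2 change (highest in curcumin against diabetes) of at least 10 CPM. In garlic against diabetes these lie at the same end as the members of smallest p. Some genes that the rule names are not reported here. Of each other list it named members that passed, or that of smallest p. Sums with pseudogenes were added after seeing the data, as were the families named for them. Replicate numbers were not used to pair libraries in the main fit. Whether they mark pairs cannot be settled here, since the deviations of the 2 garlic libraries from their mean mirror each other.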

Additional observations from a re-analysis of the deposited data

Results flagged for a closer look

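A library far from the rest of its group was looked for in the diabetes group, the only one of 4 or more libraries, in each of the 50 members tested; chance alone marks about 1 group in 20. Rpl36a was far below the others in diabetes library 2, at 6.53 CPM, where the other 3 libraries had 13.5 to 14.4 CPM. Rpl3l was found in diabetes library 1 alone, at 0.883 CPM or 25 counts, and had 0 counts in the other 3.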

How the results depend on the processing

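With 2 to 4 libraries a group, 0 calls in edgeR do not show that levels were alike. Of the members, edgeR called in diabetes against control 6 without the low-count filter, 7 with length correction and 6 with only the groups compared, DESeq2 7 and limma-voom 14, beside 0.715 to 2.83% of all genes called higher in these fits. In curcumin against diabetes the numbers were 4 with RLE scaling, 13 without the filter, 4 with length correction, 7 with a covariate for detected genes, 11 by DESeq2, 3 by limma-voom, 9 without the 2 doubted libraries (diabetes 4, curcumin 2), 2 summed with pseudogenes and 20 with both changes, beside 0.0863 to 3.3% of all genes called lower. In garlic against diabetes they were 5 without the filter, 5 with length correction, 9 by DESeq2 and 7 by limma-voom, beside 0.552 to 1.48% of all genes. Leaving out 1 library gave 0 calls in diabetes against control, 0 to 13 in curcumin and 0 to 1 in garlic against diabetes. The replicate block gave 1 call in curcumin against diabetes (0.156% of all genes lower) and changed no other count; same-numbered libraries correlated between -0.18 and 0.25, 5 of 12 best with their own number.

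Medians over members moved to 0.84 (diabetes against control) and -1.004 (garlic against diabetes) with the covariate. In the latter they were -0.91 summed with pseudogenes and -0.77 so summed without the 2 doubted libraries. Leaving out 1 library gave 0.27 to 0.74, -0.90 to -0.63 (curcumin) and -0.82 to -0.11 (garlic against diabetes). Garlic against control (0.08) became -0.14 with the covariate, and lay between -0.41 and 0.34 with 1 library left out. Curcumin against garlic (-0.36) became 0.022 with the covariate, and lay between -0.70 and 0.10. The cause was not tested.

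Signs turned in genes near 0. In diabetes against control, Rpl23 became 0.18 (limma-voom) and 0.47 (covariate), and lay between -0.36 and 0.47 with 1 library left out. Rpl3 became 0.04 (RLE, DESeq2), 0.019 (at least 1 CPM), 0.046 (length), 0.19 (covariate), 0.76 summed and 0.66 summed without the doubted libraries, and lay between -0.37 and 0.17 with 1 left out. Rpl5 became 0.036 (RLE, DESeq2), 0.017 (at least 1 CPM), 0.28 (limma-voom), 0.11 (length), 0.079 (covariate), 0.19 (block), 0.045 without the doubted libraries, 0.26 summed and 0.19 with both, and lay between -0.25 and 0.53 with 1 left out. Rpl11 became -0.12 (covariate). Rpl3l became 3.14 (covariate), 0.024 without the doubted libraries and 0.025 when also summed, and lay between -5.57 and 0.018 with 1 left out.

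In curcumin against diabetes, Rpl28 became -0.13 (covariate), -0.014 (block), -0.16 without the doubted libraries, -1.23 summed and -2.07 with both, and lay between -0.036 and 0.30 with 1 left out. Rpl3 became 0.18 (block) and 0.023 without the doubted libraries (-0.38 to 0.16 with 1 left out). Rpl5 became 0.10 summed and 0.33 with both. Rpl3l became -0.02 (limma-voom), -3.12 (covariate) and -5.66 without the doubted libraries, summed or not (-5.19 to 5.72 with 1 left out). In garlic against diabetes, Rpl5 became -0.046 summed and Rpl3l -4.63 (covariate), while Rpl5 lay between -0.061 and 0.47 and Rpl11 between -0.64 and 0.69 with 1 left out.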
